A study of Mus musculus with 12 samples.

Results

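The comparison described here is that of mice given CLE in a high-fat diet with mice given the normal diet. It asks which genes of epididymal white adipose tissue (eWAT) still differed from lean controls when the high-fat diet carried the extract. CLE is an ethanol extract of the leaves of Chrysanthemum morifolium. The members are the 3 CLE libraries and the 3 normal diet (ND) libraries, which are 6 of the 12 libraries of the series, and they were chosen by the diet in their labels. All mice were male C57BL/6J, were placed on their diets at 5 weeks of age, and were 21 weeks old after 16 weeks of feeding. ND mice ate the normal diet with no additive, HFD mice the high-fat diet alone, CLE mice the high-fat diet with 1.5% (w/w) CLE, and LU mice the high-fat diet with 0.003% (w/w) luteolin, a flavone. HFD and LU had 3 libraries each and served to estimate the spread and to give levels beside those of CLE and ND. No group received CLE with the normal diet, so diet and extract differ together between CLE and ND and their parts cannot be told apart.

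White adipose tissue stores triglyceride in adipocytes and secretes hormones such as leptin and adiponectin. In obesity it takes up macrophages, which gather around dying adipocytes, engulf their lipid, and turn on a lysosomal and lipid-handling set of genes marked by Trem2 and Gpnmb. At the same time large adipocytes lower genes of lipid synthesis, mitochondrial respiration and insulin response. RNA was extracted from the whole tissue, so fewer cells of a type and less RNA per cell cannot be told apart in any value below.

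The values are FPKM, fragments counted per unit of transcript length and scaled to each library's total, summed over the transcripts of each gene, and differences were tested on log2(FPKM + 1) with limma in a single fit of all 12 libraries. A gene was called when its Benjamini-Hochberg adjusted p over all genes tested was under 0.05 and its fold change exceeded 1.5. On this scale the change of genes with low FPKM is understated. The gene totals of the 12 libraries ranged from 435095 to 455040 FPKM, and read counts could not be recovered from them, which leaves the depth of each library unknown. Pearson's r across genes was 0.978 to 0.987 between libraries of the same group and 0.958 to 0.981 between ND and CLE libraries. Values are given in the order of ND mice 2 and 3 and the ND library headed MD4, then CLE mice 2, 4 and 11. The MD4 column was placed in ND by its group and not by a mouse number. The labels of ND mouse 3, MD4, CLE mouse 4 and LU mouse 2 carry the letter R, whose meaning the labels do not give. As markers of eWAT, the adipocyte genes Adipoq and Fabp4 stood at 1633 FPKM or more and 16066 FPKM or more in each of the 6 libraries.

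Of 12775 genes tested, 372 were called between CLE and ND, which is 2.91% of those tested. CLE was higher for 263 genes (2.06% of genes tested) and lower for 109 genes (0.853%). The median log2 fold change was 0.85 over the higher genes and -0.77 over the lower genes, against 0.01 over all genes tested. More than a 2-fold difference was found for 88 of the higher and 26 of the lower genes. All 3 CLE libraries lay above all 3 ND libraries for 262 of the 263 higher genes, and below them for all 109 lower genes. Such separation held above ND for 1692 and below ND for 1464 of all 12775 genes tested. A small adjusted p itself favours groups that do not overlap. Over the whole table the absolute log2 difference had a median of 0.15 for CLE against ND and exceeded 1 for 188 genes. Against the same 3 ND libraries, the corresponding values were 0.32 and 1425 genes for HFD, and 0.16 and 338 genes for LU.

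**Figure D1:**
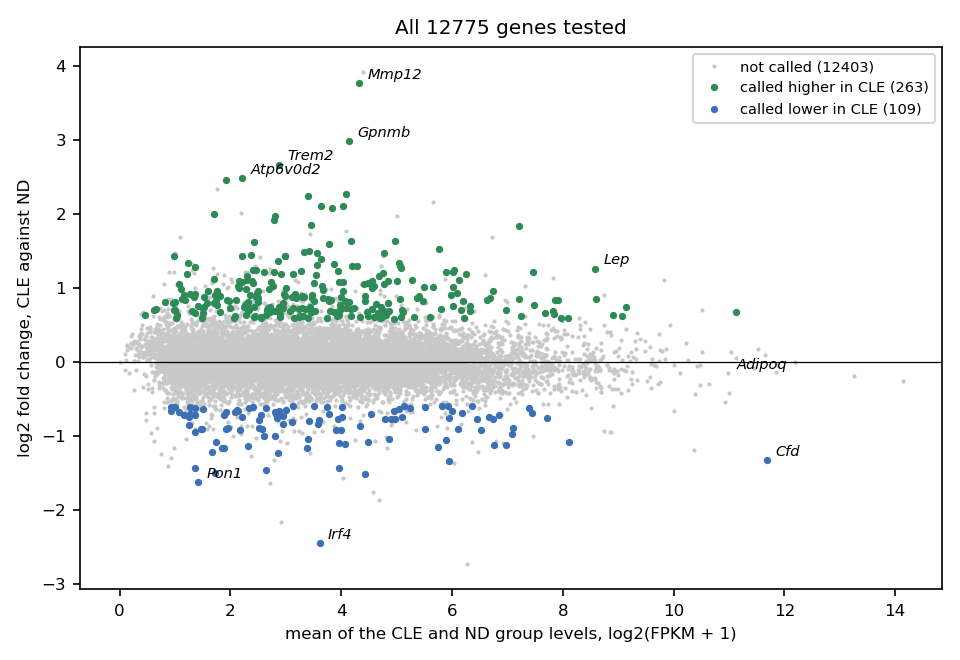
Log2 fold change of CLE against ND (vertical axis) plotted against the mean of the CLE and ND group levels in log2(FPKM + 1) (horizontal axis) for each of the 12775 genes tested. Green points are the 263 genes called higher in CLE, blue points the 109 called lower and grey points the rest, with Mmp12 the highest and Irf4 the lowest of the called genes.

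The 6 libraries did not contribute alike. Over the 263 higher genes, the median difference from the ND mean was 0.66, 0.81 and 1.07 in CLE mice 2, 4 and 11, and CLE mouse 11 was the highest of the 3 for 201 of them. Over the 109 lower genes the medians were -0.67, -0.80 and -0.92 in the same order. Genes of stratified skin also stood out in CLE mouse 11. The summed FPKM of 9 such genes, keratins among them, was 758 in this library, against 48.3 and 30.3 in CLE mice 2 and 4 and 27.1 to 29.7 in ND. HFD mouse 12 also had a raised sum, at 244, against 28.6 and 23.8 in HFD mice 15 and 18. The part of these skin genes in the calls was not tested beyond the count without CLE mouse 11. Without CLE mouse 11 the same fit called 91 genes higher and 36 lower, and without ND mouse 2 it called 81 higher and 43 lower. Of the 372 genes, 75 (20.2%) were called in all 12 fits that left out a library. When only the 6 CLE and ND libraries entered the fit, limma called 0 genes in either direction, with 2288 genes at an unadjusted p under 0.05 and a smallest adjusted p of 0.0862. The spread used for the calls was estimated over all 4 groups. An exact permutation test of 3 against 3 cannot give a two-sided p below 0.1 for a single gene.

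The letter R divides both groups, with 2 of 3 ND libraries and 1 of 3 CLE libraries carrying it. Within the libraries without it, CLE mice 2 and 11 against ND mouse 2, 118 genes were called higher and 87 lower. This ND arm is a single library, which was assumed to vary as the other groups do. Within those with it, CLE mouse 4 against ND mouse 3 and MD4, 3 were called higher and 0 lower by limma, with 1787 genes at an unadjusted p under 0.05, and there the CLE arm is a single library under the same assumption. With the letter as a covariate 209 genes were called higher and 89 lower, and 18 of the 24 genes with the 12 largest rises and 12 largest falls were called.

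The largest rises were those of macrophage genes. Mmp12, the macrophage metalloelastase (chr9:7344381-7369499 in GRCm38), measured 2.06, 3.33 and 4.82 FPKM in ND and 21.6, 41.0 and 205 FPKM in CLE. The largest rises and falls were named only where the groups did not overlap, so this separation was set by the choice. For Mmp12, CLE mouse 11 was well above the other 2 CLE mice. The log2 fold change was 3.77 ± 0.63 (SE; 95% interval 2.38 to 5.15; limma, adjusted p = 0.014), and the HFD libraries measured 379 to 526 FPKM. Gpnmb, a transmembrane glycoprotein of lipid-laden macrophages (chr6:49036546-49070929), was 5.54, 3.5 and 3.30 FPKM in ND against 14.9, 27.9 and 137 FPKM in CLE. Its log2 fold change was 2.99 ± 0.60 (adjusted p = 0.021), while HFD stood at 412 to 541 FPKM. Trem2, the lipid-sensing receptor that drives this macrophage state (chr17:48346401-48354147), was 1.49, 1.88 and 1.18 FPKM in ND and 6.25, 11.5 and 43.5 FPKM in CLE. It rose by 2.67 ± 0.54 on the log2 scale (adjusted p = 0.0212), and HFD measured 163 to 209 FPKM. Atp6v0d2, a subunit of the lysosomal proton pump used by macrophages and osteoclasts, was 0.669 to 0.694 FPKM in ND and 2.97, 7.13 and 25.2 FPKM in CLE. All 4 genes shared the order CLE mouse 2, 4, 11 from lowest to highest, and all 4 lay below each HFD library in every CLE mouse. Without ND mouse 2 the calls of all 4 were lost, whereas without CLE mouse 11 all 4 were called.

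The 250 bases before the RefSeq start (GRCm38.p6) are shown for 3 of these genes and for Tnfrsf1b, a TNF receptor also called higher, since macrophage genes often carry sites for PU.1, the lineage factor encoded by Spi1. The letters GAGGAAG, part of many PU.1 sites, were searched on both strands and are in capitals, so that a match on the other strand reads CTTCCTC. For each gene the start nearest to the 5′ end of its most abundant deposited transcript was taken, and for these 4 genes both starts coincided.
Trem2, chr17:48346151-48346400, plus strand, match 41 bases before the start: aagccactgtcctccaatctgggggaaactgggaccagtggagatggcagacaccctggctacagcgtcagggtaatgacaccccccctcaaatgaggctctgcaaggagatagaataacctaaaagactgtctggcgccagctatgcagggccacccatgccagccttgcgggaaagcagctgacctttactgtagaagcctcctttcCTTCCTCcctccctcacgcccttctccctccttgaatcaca
Tnfrsf1b, chr4:145246871-145247120, minus strand, match 208 bases before the start: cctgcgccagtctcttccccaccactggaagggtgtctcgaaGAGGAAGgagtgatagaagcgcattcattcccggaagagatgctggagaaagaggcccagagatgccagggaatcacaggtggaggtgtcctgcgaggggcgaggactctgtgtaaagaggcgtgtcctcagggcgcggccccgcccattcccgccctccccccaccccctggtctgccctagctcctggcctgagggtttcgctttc
Mmp12, chr9:7347124-7347373, plus strand, no match: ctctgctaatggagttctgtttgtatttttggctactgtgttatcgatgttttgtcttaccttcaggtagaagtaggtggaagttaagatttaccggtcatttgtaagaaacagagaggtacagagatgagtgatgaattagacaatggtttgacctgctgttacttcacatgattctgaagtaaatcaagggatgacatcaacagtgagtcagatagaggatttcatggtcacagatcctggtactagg
Gpnmb, chr6:49036268-49036517, plus strand, no match: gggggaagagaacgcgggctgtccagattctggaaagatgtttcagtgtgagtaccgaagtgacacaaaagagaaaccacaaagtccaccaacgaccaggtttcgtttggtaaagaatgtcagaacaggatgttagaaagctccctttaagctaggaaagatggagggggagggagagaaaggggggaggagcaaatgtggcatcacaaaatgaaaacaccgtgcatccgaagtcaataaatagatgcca

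These letters were present in 42 of 199 promoters of genes called higher (21.1%), in 9 of 83 promoters of genes called lower (10.8%) and in 1091 of 9922 promoters of all genes tested (11%). The letters TCACGTG, the E-box read by the lysosomal factors of the MiT/TFE family, were also searched on both strands and can share at most 2 bases with the first motif. They were present in 6 of the 199 (3.02%), 7 of the 83 (8.43%) and 494 of the 9922 (4.98%). A match describes the letters in this window and not binding.

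Among the lipid-associated macrophage genes, 8 of 23 tested were called higher and 0 lower, beside 2.06% of all genes tested called higher. In this list 1 member was below 0 (-0.24), with every CLE library below every ND library. The median log2 fold change of the list was 0.71 for CLE against ND, and 2.10 for HFD against the same ND libraries. Besides the genes above, Itgax, the integrin CD11c, was 1.73, 2.04 and 2.57 FPKM in ND and 5.75, 6.83 and 29.8 FPKM in CLE (log2 fold change 1.93 ± 0.48, adjusted p = 0.0426), and was called in 3 of the 12 fits without a library. Ctss, a lysosomal cysteine protease that prepares antigen, was 25.5, 36.1 and 27.3 FPKM in ND and 53.8, 75.2 and 159 FPKM in CLE. Per library, the list median stood 0.34, 0.48 and 1.45 above the ND mean in CLE mice 2, 4 and 11. With CLE mouse 11 left out, 5 members were called at a list median of 0.39. With ND mouse 2 left out, 0 were called by limma, at a list median of 0.75.

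Core macrophage identity genes rose as well, with 14 of 22 called higher and 0 lower, at a median of 0.84. Of all genes tested 2.06% were called higher. In the core list 1 member was below 0 (-0.44), with every CLE library below every ND library. The summed FPKM of the list was 497, 711 and 487 in ND and 880, 1017 and 1388 in CLE. These sums did not overlap, and HFD reached 3762 to 4211. Adgre1, which encodes the macrophage antigen F4/80, measured 7.80, 11.5 and 7.34 FPKM in ND and 15.9, 20.1 and 31.9 FPKM in CLE. Its log2 fold change was 1.23 ± 0.23 (95% interval 0.72 to 1.73, adjusted p = 0.0168), and its difference from HFD was -2.69 (-3.19 to -2.18). Cd68, a lysosomal glycoprotein of phagocytes, was 15.8, 16.2 and 12.6 FPKM in ND and 27.7, 39.6 and 71.0 FPKM in CLE. Mpeg1, the macrophage pore protein perforin-2, rose from 13.3 to 19.1 FPKM in ND to 37.1 to 80.9 FPKM in CLE and was called in all 12 fits that left out a library. Itgb2, the shared chain of the leukocyte integrins, had the largest rise of the list, at 1.64 ± 0.32. Without CLE mouse 11 the list had 8 called members, and without ND mouse 2 it had 4. Among 16 resident macrophage genes limma called 0, where 2.06% of all genes tested were called higher. In this list 15 of 16 were above 0. The median was 0.25, and it was 0.30 for HFD and 0.32 for LU against the same ND libraries. Mrc1, the mannose receptor of resident macrophages, measured 17.1 to 25.4 FPKM in ND and 24.1 to 29.8 FPKM in CLE, and these ranges overlapped.

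The antigen-presenting MHC class II genes were called higher in 7 of 9 tested, beside 2.06% of all genes tested. Ciita, the master transactivator of this gene family, was 2.62, 2.92 and 2.49 FPKM in ND and 4.50, 4.86 and 6.22 FPKM in CLE, with little spread within each group. It rose by 0.75 ± 0.10 (adjusted p = 0.00941) and kept its call in all 12 fits without a library. H2-DMb1 and H2-DMa, which load peptides onto class II molecules, rose by 0.96 ± 0.22 and 0.73 ± 0.17. The list median was 0.66, against 1.47 for HFD and 1.00 for LU, each taken against the same ND libraries. The list had 2 called members without CLE mouse 11, and also 2 without ND mouse 2 or without MD4.

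Smaller numbers of genes were called in other lists of innate immunity. Of all genes tested, 2.06% were called higher and 0.853% lower. Of 5 subunits of the phagocyte NADPH oxidase, 2 rose, and Cybb, its catalytic subunit, went from 7.07, 7.65 and 4.75 FPKM in ND to 14.4, 18.4 and 19.9 FPKM in CLE (1.32 ± 0.18, adjusted p = 0.00743). Among 20 complement genes 6 rose and 2 fell, against 3 and 1 without CLE mouse 11 and 2 and 1 without ND mouse 2. The anaphylatoxin receptors C3ar1 and C5ar1 rose by 1.21 ± 0.25 and 1.07 ± 0.20, and Cfb, a component of the alternative pathway, rose by 0.85 ± 0.19. With only the transcript of highest mean, Cfb had the opposite sign (-1.09). C6, a component of the membrane attack complex, fell by 0.77 on the log2 scale and was called in 2 of the 12 fits without a library. The fall of Cfd is given below with the adipocyte genes. Of 24 genes of Toll-like receptor and NF-kB signalling, 3 rose, namely the receptors Tlr13, Tlr8 and Tlr1, which reached 1.32 to 4.57, 3.72 to 7.79 and 1.40 to 3.03 FPKM in CLE. Without CLE mouse 11 and without ND mouse 2, limma called 0 genes of this list, and Tlr13 was called in 3 of the 12 fits without a library. Of 55 lysosomal genes 6 rose and 0 fell, led by Ctss, Cd68 and Laptm5, at a list median of 0.27, and 1 was called without ND mouse 2. The chemokines Ccl9 and Ccl6, 2 of 23 chemokine genes, rose by 1.09 ± 0.19 and 0.75 ± 0.12, and of 22 cytokine genes Tnfrsf1b, a receptor for TNF, rose by 0.69 ± 0.16, a call made in 5 of the 12 fits without a library. Tnf was 0.223 to 0.392 FPKM in ND and 0.385 to 1.11 FPKM in CLE (95% interval of the log2 difference -0.01 to 0.68), and Ccl2, the monocyte attractant, was 2.99 to 7.65 against 5.01 to 15.1 FPKM (0.01 to 1.51, adjusted p = 0.211).

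**Figure D2:**
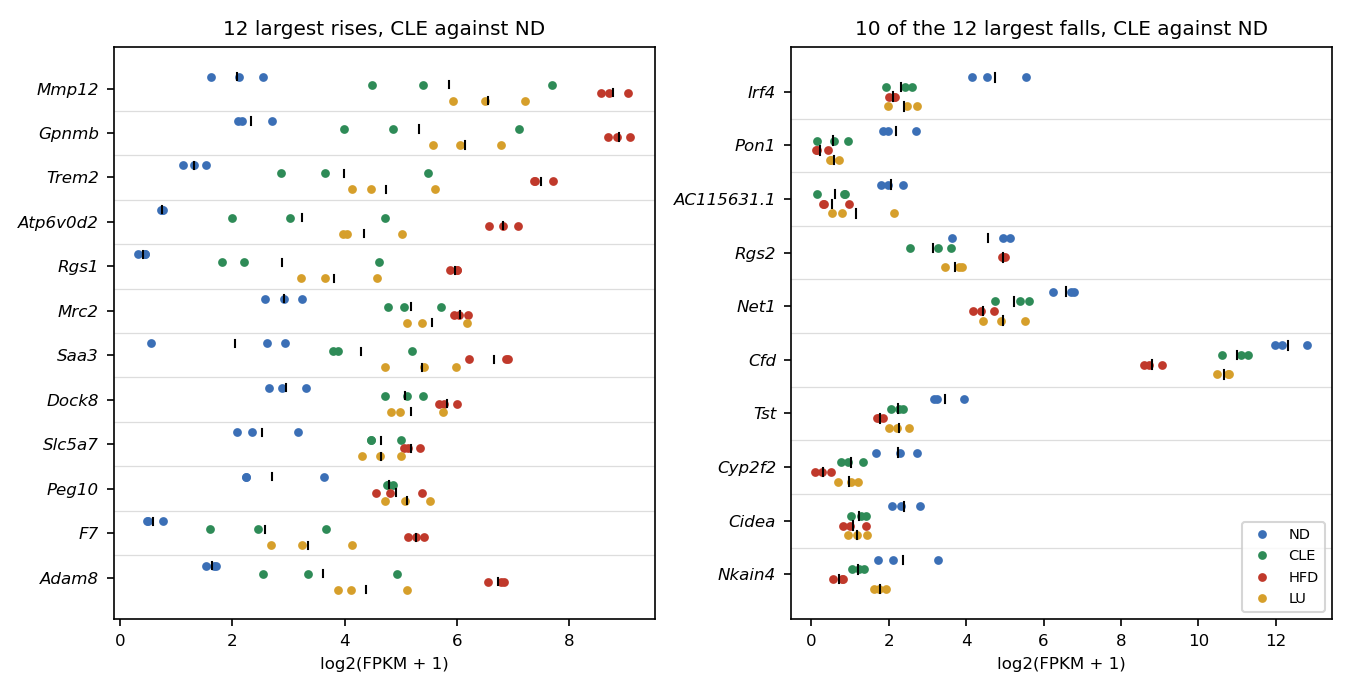
Level in log2(FPKM + 1) (horizontal axis) of the 12 genes with the largest rise (left) and 10 of the 12 with the largest fall (right) in CLE against ND, by library. Each point is 1 library of ND (blue), CLE (green), HFD (red) or LU (yellow), and the vertical tick is the group mean. These genes were selected for CLE and ND values that do not overlap, and for Rgs2 the nearest values almost touch. The green points of Peg10, Irf4, Pon1 and Cidea overlap the red points, whereas those of Mmp12, Gpnmb, Trem2, Atp6v0d2 and Rgs1 lie below them.

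The remaining large rises fell into macrophage-type genes and genes of other cells. Rgs1, a regulator of G-protein signalling in leukocytes, was 0.254 to 0.371 FPKM in ND and 2.51, 3.60 and 23.6 FPKM in CLE (2.47 ± 0.57). F7, coagulation factor VII, and Adam8, a metalloprotease of myeloid cells, rose by 2.0 ± 0.44 and 1.98 ± 0.48, with CLE mouse 11 highest in both. Rgs1 was called in 5 of the 12 fits without a library, F7 in 7 and Adam8 in 3. Saa3, an acute phase protein of adipose tissue, was 0.477, 6.68 and 5.17 FPKM in ND and 13.7, 12.8 and 35.7 FPKM in CLE (2.25 ± 0.58, adjusted p = 0.0471). Its call was lost in 10 of the 12 fits that left out a library.

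Other rises had CLE values closer to those of HFD. Peg10, an imprinted gene derived from a retrotransposon (chr6:4747306-4760517), measured 3.73, 3.76 and 11.4 FPKM in ND and 28.1, 25.9 and 26.3 FPKM in CLE. The 3 CLE mice were close together, and their separation from ND was a condition of the choice. The log2 fold change was 2.09 ± 0.34 (adjusted p = 0.014), and HFD ranged from 22.6 to 40.4 FPKM, so that CLE minus HFD was -0.12 with a 95% interval of -0.87 to 0.64. Slc5a7, the high-affinity choline transporter (chr17:54273590-54299034), was 3.24, 4.12 and 8.02 FPKM in ND and 21.2, 21.0 and 31.0 FPKM in CLE, with 32.1 to 39.6 FPKM in HFD. It rose by 2.11 ± 0.26 (adjusted p = 0.00674), and CLE minus HFD was -0.53 (-1.10 to 0.05). Sfrp5, a secreted Wnt antagonist made by enlarging adipocytes (chr19:42197971-42202252), was 59.0, 46.6 and 137 FPKM in ND against 239.7, 238 and 314 FPKM in CLE, and HFD stood at 235 to 285 FPKM. Its rise was 1.84 ± 0.32 (adjusted p = 0.0148), with CLE minus HFD at 0.06 (-0.63 to 0.76). Mrc2, a collagen uptake receptor, and Dock8, a guanine nucleotide exchange factor of immune cells, rose by 2.27 ± 0.29 and 2.12 ± 0.25 (adjusted p = 0.00674 for each). For both, CLE was below HFD, with CLE minus HFD at -0.87 (-1.50 to -0.25) and -0.74 (-1.29 to -0.20). Peg10, Slc5a7, Mrc2 and Dock8 were called in all 12 fits without a library. Sfrp5 lost its call without ND mouse 2 or without CLE mouse 11.

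The largest fall was that of Irf4, an interferon regulatory factor that in adipocytes drives lipolytic and thermogenic genes and in leukocytes shapes lymphoid and macrophage states (chr13:30749226-30766976). It measured 46.0, 22.3 and 16.9 FPKM in ND and 4.37, 5.02 and 2.78 FPKM in CLE. The highest CLE value, 5.02 FPKM, was far from the lowest ND value, 16.9 FPKM, though some separation was a condition of the choice. The log2 fold change was -2.44 ± 0.31 (95% interval -3.12 to -1.76, adjusted p = 0.00674), the ratio of the means was 7.01 (ND over CLE), and the call held in all 12 fits without a library. HFD stood at 3.03 to 3.47 FPKM and LU at 2.98 to 5.67 FPKM. CLE minus HFD was 0.21 with an interval of -0.47 to 0.89.

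Further falls concerned enzymes, a signalling protein and a lipid droplet protein. Pon1, paraoxonase 1 (chr6:5168090-5193946), was 5.46, 2.61 and 2.98 FPKM in ND and 0.926, 0.510 and 0.107 FPKM in CLE (-1.62 ± 0.23, adjusted p = 0.00941), with 0.077 to 0.352 FPKM in HFD. Net1, an exchange factor for the GTPase RhoA, measured 109, 104 and 74.9 FPKM in ND and 48.3, 40.6 and 25.8 FPKM in CLE (-1.33 ± 0.29). Tst, the mitochondrial thiosulfate sulfurtransferase rhodanese, measured 14.4, 8.49 and 8.04 FPKM in ND and 4.15, 3.2 and 3.77 FPKM in CLE (-1.23 ± 0.19, adjusted p = 0.0112). Cidea, a lipid droplet protein that is also a marker of brown and beige fat, was 3.25 to 5.94 FPKM in ND and 1.02 to 1.66 FPKM in CLE (-1.16 ± 0.20), and its difference from HFD was 0.16 (-0.28 to 0.61). Pon1, Tst and Cidea were called in all 12 fits without a library, and Net1 in 8. Cyp2f2, Nkain4 and AC115631.1 were also among the 12 largest falls. Cyp2f2, a cytochrome P450, fell by 1.21 on the log2 scale and was called in 8 of the 12. Nkain4, a protein that interacts with the sodium pump, was 2.30, 3.35 and 8.71 FPKM in ND against 1.08 to 1.57 FPKM in CLE and was called in 2 of the 12. Its order in ND was that of the summed FPKM of mesothelial markers, 17.6, 30.1 and 85.5 in ND and 10.2 to 16.1 in CLE, and the part of these cells in its fall was not tested. AC115631.1 was also called in 2, and it overlaps Ankhd1 and Eif4ebp3 on the same strand, so its reads may belong to them.

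Rgs2 stood apart from the other falls in its HFD level. This inhibitor of Gq signalling (chr1:143999338-144004161) was 34.1, 30.0 and 11.4 FPKM in ND and 4.86, 8.66 and 11.3 FPKM in CLE, while HFD measured 29.6 to 30.9 FPKM and LU 9.93 to 13.8 FPKM. CLE mouse 11 and MD4 differed by about 0.1 FPKM, so the groups were barely apart. CLE minus ND was -1.42 ± 0.35 (adjusted p = 0.0419) and CLE minus HFD was -1.81 (-2.58 to -1.04, adjusted p = 0.0023), and HFD minus ND was 0.38 ± 0.35. Against ND the call held in 2 of the 12 fits without a library. Smad7, the inhibitory Smad of TGF-beta signalling, had the mirror pattern, at 8.08, 4.00 and 7.36 FPKM in ND, 11.1, 14.1 and 12.0 FPKM in CLE and 4.87 to 7.71 FPKM in HFD. It rose against ND by 0.88 ± 0.23 (adjusted p = 0.0497) and was above HFD by 0.90 (0.40 to 1.41, adjusted p = 0.011), but the call against ND was again made in 2 of the 12 fits. Rgs2 and Smad7 were both picked for their CLE against ND difference. The same CLE libraries enter CLE minus HFD, so this choice favours a large difference and a small adjusted p there as well.

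Calls among adipocyte identity genes were few in number but no rarer than the 2.91% over all genes tested. Of 31 tested, 1 rose and 1 fell, and the list median was -0.05, against -0.66 for HFD with the same ND libraries. Nonetheless 24 of the 31 had a log2 fold change below 0, and in 10 every CLE library lay below every ND library, which held for 1464 of all 12775 genes. The summed FPKM of the list was also lower in every CLE library than in any ND library. Adipoq, which encodes adiponectin, was 1866, 2292 and 2249.8 FPKM in ND and 2011, 2156 and 1633 FPKM in CLE, with 95% limits of -0.42 to 0.12 on the log2 difference. For Pparg, the master regulator of adipocyte differentiation, the interval was -0.29 to 0.29, and for the lipases Lipe and Pnpla2 it was -0.23 to 0.17 and -0.35 to 0.28. Plin1, which coats the lipid droplet, had an interval of -0.48 to 0.07, and Slc2a4, the insulin-responsive glucose transporter GLUT4, of -0.40 to 0.24. The sign of Pparg, Lipe, Pnpla2 and Slc2a4 turned in some of the alternative fits. Fabp4, the adipocyte fatty acid carrier, was lower in each CLE library than in any ND library, at 16946 FPKM or less against 19234 FPKM or more, but was not called (-0.26 ± 0.10, adjusted p = 0.146).

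The called exceptions were Lep and Cfd. Lep, the satiety hormone leptin (chr6:29060220-29073877), was 194, 248 and 302 FPKM in ND and 497, 586 and 697 FPKM in CLE, and HFD reached 1172 to 1291 FPKM. It rose by 1.26 ± 0.23 (95% interval 0.76 to 1.76, adjusted p = 0.0151), and CLE was below HFD by -1.08 (-1.58 to -0.58). The call of Lep was lost without ND mouse 2 and without CLE mouse 11. Cfd, the adipocyte protease adipsin, which is also complement factor D (chr10:79890853-79892655), was 7206, 4560.3 and 3999 FPKM in ND and 2190.4, 2466 and 1550.4 FPKM in CLE. It fell by 1.32 on the log2 scale (SE 0.23, adjusted p = 0.0143), in all 12 fits without a library, and stood at 383 to 532 FPKM in HFD. CLE exceeded HFD by 2.2 (1.70 to 2.69).

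**Figure D3:**
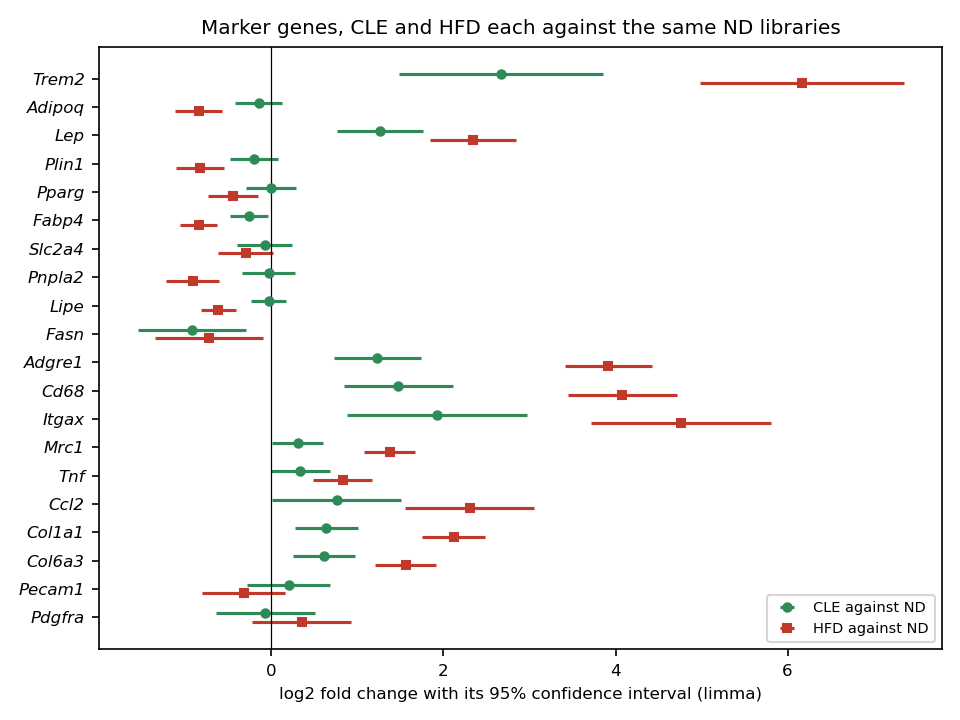
Log2 fold change with its 95% confidence interval (limma) for 20 marker genes, for CLE against ND (green circles) and HFD against ND (red squares), which share the 3 ND libraries. The CLE intervals of Adipoq, Plin1, Pparg, Pnpla2 and Lipe include 0, and those of Lep, Adgre1, Cd68, Itgax and Trem2 lie above it. That of Fabp4 lies below 0 and that of Ccl2 just above it, though neither gene was called. For Fasn the CLE and HFD intervals cover nearly the same range.

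Some lipid synthesis genes fell, beside 0.853% of all genes tested called lower. Of 23 genes of de novo lipogenesis, 3 fell and 0 rose, at a median of -0.36 for CLE and -0.34 for HFD. The summed FPKM of the list did not follow these medians. It was 2325 to 3853 in ND and 1996 to 2543 in CLE, which overlapped, against 10830 to 12980 in HFD. Acaca, the acetyl-CoA carboxylase that commits carbon to fatty acids, was 141, 214 and 126 FPKM in ND and 92.2, 68.5 and 56.8 FPKM in CLE (-1.12 ± 0.20, adjusted p = 0.0148), and HFD was 43.1 to 50.5 FPKM. Tkt, transketolase of the pentose phosphate pathway, was 142, 261 and 173 FPKM in ND against 114, 87.0 and 85.2 FPKM in CLE (-0.97 ± 0.19). Slc25a1, the mitochondrial citrate carrier, was 74.9 to 127 FPKM in CLE, each value below the lowest ND library (-0.88 ± 0.22). For Tkt and Slc25a1 the CLE minus HFD difference was -0.05 (-0.46 to 0.36) and -0.04 (-0.51 to 0.44). Fasn, the fatty acid synthase, measured 376, 913 and 529 FPKM in ND and 357, 222 and 333 FPKM in CLE and was not called (-0.93 ± 0.29, adjusted p = 0.0815). ND mouse 3 was the highest ND library for Acaca, Tkt, Slc25a1 and Fasn. Without CLE mouse 11, 0 members of the list were called by limma, at a median of -0.47, and in the libraries without the letter R, which leave out ND mouse 3, the median was 0.02 with 1 member higher and 1 lower.

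Insulin response and oxidation genes gave small numbers of calls, in each list above the 0.853% called lower over all genes tested. Of 31 genes of insulin signalling and glucose uptake, 2 fell: Irs1, the insulin receptor substrate, from 7.02 to 8.53 FPKM in ND to 4.18 to 5.01 FPKM in CLE, and Grb14, an adaptor that restrains the insulin receptor, from 8.84 to 11.2 FPKM to 3.73 to 7.31 FPKM. Irs1 was called in 2 of the 12 fits without a library and Grb14 in 8, and limma called 0 genes of this list without CLE mouse 11 or without ND mouse 2. Bcat2, the mitochondrial branched-chain aminotransferase, was 35.0, 49.1 and 36.9 FPKM in ND and 23.1, 22.1 and 23.6 FPKM in CLE, and HFD lay at 20.2 to 29.0 FPKM. It fell by 0.77 on the log2 scale (SE 0.16, adjusted p = 0.0209), the single call among 24 genes of branched-chain amino acid breakdown, whose median was -0.23. Ehhadh, a peroxisomal beta-oxidation enzyme, was the single call among 32 fatty acid oxidation genes, at 38.0 to 43.9 FPKM in ND and 12.4 to 24.3 FPKM in CLE, in 4 of the 12 fits without a library, while Bcat2 was called in 9. Hsd11b1, which regenerates active glucocorticoid within fat, fell by 1.12 on the log2 scale (SE 0.21), from 169 to 201 FPKM to 55.8 to 112 FPKM.

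Subunits of oxidative phosphorylation were lower by a small amount in nearly every case, and few passed the test. Of 74 subunits tested, 73 had a log2 fold change below 0 and the median was -0.30. Only 1 was called, beside 0.853% of all genes tested called lower. In 43 of the 74, every CLE library lay below every ND library, whereas over all 12775 genes this held for 1464. The called subunit was Ndufa5 of complex I, at 50.0 to 59.2 FPKM in ND and 34.2 to 38.8 FPKM in CLE (-0.61 ± 0.13, adjusted p = 0.0257). The list medians by library were -0.26, -0.28 and -0.36 in CLE, and -0.14, 0.18 and -0.03 in ND. For HFD against the same ND libraries the median was -0.65. The 77 mitochondrial ribosomal proteins had 71 members below 0, a median of -0.19 and 0 calls by limma. Cytosolic ribosomal proteins, 76 tested, were also mostly below 0, in 71, at a median of -0.11 and with 0 calls by limma. Within the libraries without the letter R the medians of the oxidative phosphorylation and mitochondrial ribosome lists were -0.16 and -0.05.

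**Figure D4:**
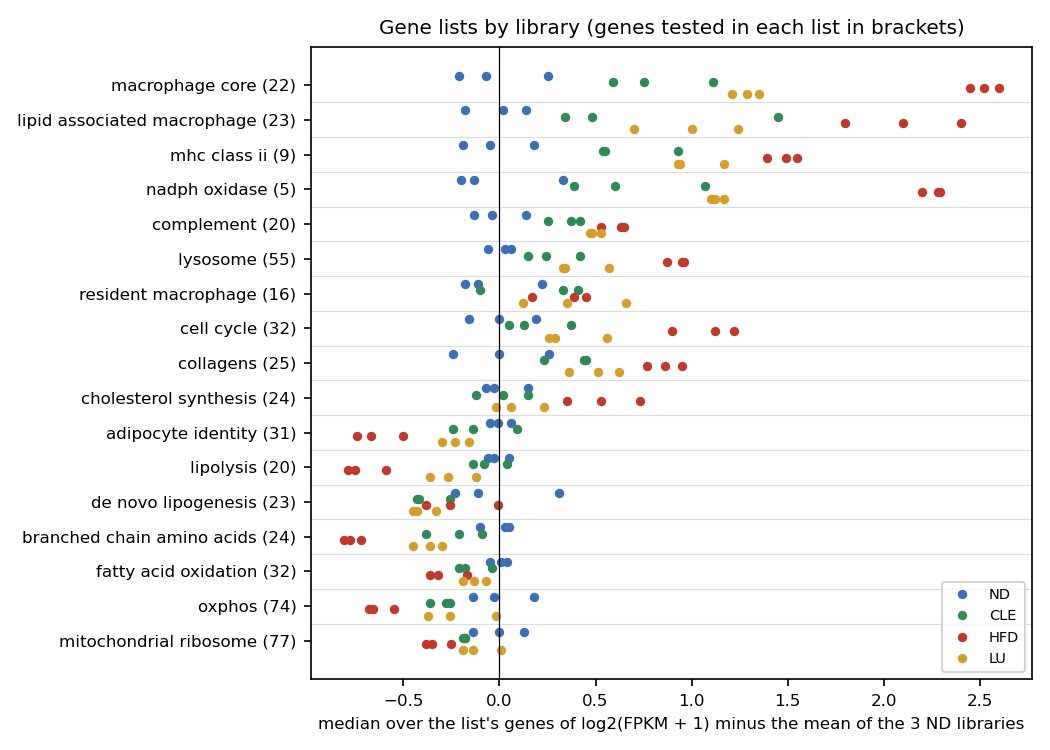
Median over the tested genes of each list of log2(FPKM + 1) minus the mean of the 3 ND libraries (horizontal axis), with 1 point per library of ND (blue), CLE (green), HFD (red) and LU (yellow), for 17 gene lists (number of genes tested in brackets). CLE lies between ND and HFD for the core and lipid-associated macrophage, MHC class II and oxidative phosphorylation lists, overlaps ND for adipocyte identity and lipolysis, and overlaps HFD for de novo lipogenesis.

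Genes of lipid efflux and of storage regulation rose in small number, beside 2.06% of all genes tested called higher. Of 13 genes of cholesterol efflux and storage 3 rose: Nceh1 and Soat1, which hydrolyse and form cholesteryl esters, by 1.24 ± 0.27 and 0.92 ± 0.24, and Abcg1, a cholesterol exporter, by 0.87 ± 0.15. Soat1 was called in 1 of the 12 fits without a library, Nceh1 in 7 and Abcg1 in 12. Abcg1 was 34.9, 23.2 and 31.5 FPKM in ND and 56.7, 52.5 and 54.4 FPKM in CLE, and CLE minus HFD had an interval of -0.39 to 0.25. Of 24 cholesterol synthesis genes 1 rose, Hsd17b7, and the list median was 0.00 against 0.53 for HFD. Npr3, the clearance receptor of natriuretic peptides, rose by 0.60 ± 0.13, from 163 to 243 FPKM in ND to 277 to 337 FPKM in CLE.

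Matrix genes were called higher in 5 of 38 tested, beside 2.06% of all genes tested. Apart from Mmp12, Thbs2, a matricellular glycoprotein, was 28.6, 10.3 and 21.3 FPKM in ND and 42.9, 75.3 and 35.1 FPKM in CLE (1.34 ± 0.32). It was called in 3 of the 12 fits without a library, and with known transcripts alone its sign turned (-0.29). The list had 2 called members without CLE mouse 11 and 2 without ND mouse 2. Adamts5, an aggrecan-cleaving protease, was 35.7 to 61.8 FPKM in ND and 88.2 to 96.1 FPKM in CLE (0.93 ± 0.16), in all 12 fits without a library, and its CLE minus HFD difference was 0.22 (-0.14 to 0.58). Of 25 collagens 1 was called, Col16a1 (1.86 ± 0.40), and the median was 0.34. Limma called 0 collagens without ND mouse 2 (median 0.19) and 0 without CLE mouse 11 (0.31), but 4 higher and 1 lower without MD4 (0.46), and 8 higher and 1 lower within the libraries without the letter R (0.73), where ND is a single library. Col1a1 was 37.1, 39.4 and 51.7 FPKM in ND and 65.9, 54.3 and 81.4 FPKM in CLE, and Col6a3 15.6 to 24.2 against 25.4 to 36.5 FPKM. Neither overlapped between groups, but all 3 CLE libraries lay above ND for 1692 of all 12775 genes tested. Neither passed the threshold in limma (adjusted p = 0.0502 and 0.0524).

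Redox and stress genes moved in both directions, beside 2.06% of all genes tested called higher and 0.853% called lower. Of 34 genes of the redox list 3 rose and 3 fell, and without CLE mouse 11, as without ND mouse 2, 1 was called higher and 0 lower by limma. Ephx1, the microsomal epoxide hydrolase, was 38.4, 40.8 and 61.0 FPKM in ND and 84.2, 95.1 and 123 FPKM in CLE (1.11 ± 0.18, adjusted p = 0.014), and HFD was 108 to 123 FPKM. Hmox1, heme oxygenase 1, and Sod3, the extracellular superoxide dismutase, rose by 0.71 ± 0.13 and 0.65 ± 0.12. The glutathione enzymes Gsta4, Gpx3 and Gsta3 fell by 1.10, 1.08 and 0.92 on the log2 scale, with Gsta3 called in 2 of the 12 fits without a library. Gpx3 was 482, 393 and 322 FPKM in ND and 206, 224 and 137 FPKM in CLE, and HFD lay at 59.1 to 76.8 FPKM. Of 24 immediate early genes 3 rose, the transcription factors Egr1 and Fos by 1.30 each (SE 0.31 and 0.28) and Junb by 0.72 ± 0.14. All 3 lost their calls without ND mouse 2, without ND mouse 3 and without CLE mouse 11. Of 20 cytochrome P450 genes, Cyp4v3 and Cyp2c23 rose by 0.82 ± 0.14 and 0.80 ± 0.20 and Cyp2f2 fell, and limma called 0 of the 20 without ND mouse 2. Cyp4v3 was called in 11 of the 12 fits without a library and Cyp2c23 in 3. Sdf2l1 rose and Chac1 fell among 23 genes of endoplasmic reticulum and integrated stress, each by under 1 on the log2 scale, in 2 and 3 of the 12 fits without a library.

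Several lists had 0 calls by limma. Of all genes tested 2.91% were called, so 0 calls in lists of 3 to 32 genes do not set these lists apart. For interferon-stimulated genes (25 tested) the median was -0.12, for triglyceride synthesis and uptake (25) -0.02, for progenitor markers (23) 0.00, for endothelial markers (21) 0.09 and for cell cycle genes (32) 0.19, against 1.11 for the cell cycle list in HFD. Among leukocytes other than macrophages it was 0.00 for T and NK cells (10), -0.47 for B cells (5), 0.25 for neutrophils (3), 0.19 for dendritic cells (9) and -0.20 for mast cells (7). The summed FPKM of the interferon-stimulated list was 854 to 974 in ND and 1014 to 2161 in CLE, without overlap. Even so, 18 of its 25 tested genes were below 0. Mesothelial markers (9) were all below 0, at a median of -1.0, and so were erythrocyte genes (5), whose sums of 571 to 2291 FPKM in ND and 273 to 1173 FPKM in CLE overlapped. Pecam1, an endothelial adhesion molecule, and Pdgfra, a progenitor receptor, had intervals of -0.28 to 0.68 and -0.65 to 0.50 and changed sign between fits. Ucp1, the uncoupling protein of brown fat, did not reach the level required for testing and was at 0.0324 to 0.460 FPKM in ND and 0.120 to 0.254 FPKM in CLE. Gm20490 was the only gene listed at 0 in one of the 2 groups with a mean of at least 10 FPKM in the other, and it was at 48.6 FPKM in ND mouse 3 alone.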

How the data were processed

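Total RNA was extracted from eWAT of 12 mice, 3 per group, and mRNA purified from it was sequenced. Samples were grouped by the diet in their labels. The submitters' processing notes name CASAVA 1.8.2, Bowtie2 2.2.3, TopHat2 2.0.12 and Cufflinks 2.2.1. The authors deposited FPKM values for 152210 transcripts in 15 columns. No label corresponds to 3 of these columns, which were left out. The column headed MD4 matches no title exactly and entered as an ND library without a mouse number. Columns with the authors' own comparisons were not used. Read counts could not be recovered: 12% to 17% of low values lay within 0.05 of a whole multiple, against 10% by the tolerance alone, so no count test was run.

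Known transcripts and assembled isoforms of them were matched to GENCODE M21 (GRCm38), and 77000 of 78786 known ones were found, 87.6% with the same start and end. A further 8149 assembled transcripts corresponded to no known transcript and were left out of the gene sums. These held 65.3% to 92.7% of each column total. Summing gave 22947 genes, and 12775 reached 1 FPKM in 3 or more libraries. These were tested in limma 3.58.1 (R 4.3.3) as log2(FPKM + 1) with a coefficient per group, no covariate and no trend. The design lists an exact permutation test for single values, which cannot pass 0.05 here. Promoters came from RefSeq (GRCm38.p6) and matched 9922 genes tested. Tables used Python 3.11.15, pandas 2.3.3, numpy 2.4.6 and matplotlib 3.10.9. The fit was tested on simulated data.

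Named genes were the 12 largest called rises and 12 largest called falls (protein-coding, groups not overlapping), up to 3 called members per list and direction, and a list of 21 fixed markers. Some genes that this rule selects are not reported here. The comparison, its lists and its tests were chosen with earlier results of these data known. The alternatives were a pseudocount of 0.1, other filters and scalings, other models and thresholds, the letter R, another gene summary, and leaving out each library. The use of known transcripts alone was chosen after seeing the data.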

Additional observations from a re-analysis of the deposited data

How the results depend on the processing

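The groups do not overlap for 262 of the 263 higher and all 109 lower genes, so leaving out libraries could not turn their sign. Of the 372 genes, 354 had the same sign with the transcript of highest mean and 350 with known transcripts only, where some were not tested. The counts moved more. The 263 higher and 109 lower genes became 163 and 64 with no filter on low values, 0 and 0 with the CLE and ND libraries alone, 3 and 0 within the libraries with the letter R, 153 and 54 with the transcript of highest mean per gene, 168 and 54 with known transcripts only, 417 and 244 by the adjusted p alone, and 88 and 26 at a fold change over 2. The higher genes also fell to 105 when the libraries with the letter R were left out and to 118 within those without it, and the lower genes to 69 with array weights. Leaving out 1 library gave 81 to 368 higher and 36 to 130 lower genes. The low counts came without ND mouse 2 (81 and 43), CLE mouse 11 (91 and 36), CLE mouse 4 (158 and 70) and, for lower genes, ND mouse 3 (71). The cause was not tested. With the replicate block 286 and 123 were called. ND and CLE share a single number, 2, whose deviations correlated at -0.099, and the other same-numbered pairs, which involve LU, gave 0.097, 0.102 and 0.189, so the mice were not taken as paired.

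Signs turned for genes that were not called, apart from Cfb (-1.09, transcript of highest mean) and Thbs2 (-0.294, known transcripts only). Pparg was 0.023 with equal totals, 0.01 with median ratios, 0.026 with quantile normalization, 0.089 with array weights, 0.008 with the replicate block, and -0.154 to 0.143 over the fits without a library. Fabp4 was 0.0 with quantile normalization, which sets it so because Fabp4 has the highest level in every library. Slc2a4 was 0.273 in both sets without the letter R, and -0.213 to 0.085 over the fits without a library. Pnpla2 was 0.114 with quantile normalization, 0.052 with array weights, 0.216 within the letter R, and -0.145 to 0.115 over the fits without a library. Lipe was -0.111 to 0.023 over the fits without a library. Ccl2 was -0.189 within the letter R. Pecam1 was -0.056 in both sets without the letter R and -0.019 to 0.369 over the fits without a library. Pdgfra was 0.161 with array weights, 0.043 with the letter as a covariate, 0.29 within it, and -0.274 to 0.186 over the fits without a library. With no read counts, the depth of single values could not be weighed.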

Other observations

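Some genes with large differences between CLE and ND did not pass the test. They were chosen after their values were seen. Acsm3, a mitochondrial acyl-CoA synthetase, was 65.2, 29.9 and 28.4 FPKM in ND and 20.2, 12.5 and 4.48 FPKM in CLE, which differed by -1.75 ± 0.46 on the log2 scale (adjusted p = 0.0517 in limma). Ccn5, a matricellular protein of the CCN family, was 16.1, 7.31 and 56.4 FPKM in ND and 73.8, 77.5 and 125 FPKM in CLE (2.17 ± 0.57, adjusted p = 0.0517). Cish, a suppressor of cytokine signalling, was 12.4, 28.9 and 6.88 FPKM in ND and 3.27, 1.68 and 2.09 FPKM in CLE (-2.16 ± 0.65, adjusted p = 0.0715). In all 3 the groups did not overlap, which held above ND for 1692 and below ND for 1464 of all 12775 genes tested. Krtdap, a keratinocyte protein, reached 586 FPKM in CLE mouse 11 against 20.4 and 1.13 FPKM in the other CLE mice and 0 to 2.12 FPKM in ND (3.92 ± 1.86, adjusted p = 0.232).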
